A study of Mus musculus with 8 samples.

Results

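The genes described here are heat shock and chaperone genes, taken as a list of 49 symbols: the heat-inducible Hsp70 genes Hspa1a and Hspa1b, other Hsp70 and Hsp110 proteins, Hsp90 with its cochaperones, Hsp60 and Hsp10, J proteins, regulators of Hsp70, the TRiC chaperonin, small heat shock proteins and heat shock factors. Members were all probe sets that the array annotation assigns to 1 of these symbols alone. This rule gave 119 probe sets of 46 genes, out of 45037 probe sets that are not controls and 18193 genes. Hsp90ab1, Ptges3 and Hsf1 had no such probe set and were not analysed here. The list was named for the cytosol, yet Hspa9, Hspd1, Hspe1, Trap1 and Dnaja3 encode proteins of mitochondria and Hspa13 one of microsomes. No probe set was dropped for low signal.

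Naive CD4 T cells of C57BL/6 mice were sorted by flow cytometry, stimulated with CD3 and CD28 antibodies and grown for 48 hours in Th17 conditions, the cytokine setting in which CD4 T cells become producers of IL-17. Digoxin is a cardiac glycoside that inhibits the sodium pump and was studied here as an antagonist of RORγt, the nuclear receptor that directs the Th17 programme. The 4 groups of 2 arrays each were RORγt-deficient cells with digoxin (KO digoxin), RORγt-deficient cells with DMSO (KO DMSO), wildtype cells with digoxin (WT digoxin) and wildtype cells with DMSO, the solvent (WT DMSO). The RORγt transcript was not analysed here, so the genotype rests on the labels. All groups shared the Th17 culture, so no group shows these genes without it. The digoxin dose, the allele behind the RORγt deficiency and the number of animals behind an array are not given in the sources used here.

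RNA was measured on Affymetrix Mouse Genome 430 2.0 arrays, and the deposited values are log2 differences from the mean of the WT DMSO arrays. The 2 WT DMSO arrays therefore mirror each other around 0, and exact levels of different probe sets cannot be set against each other. The range of the lowest level could be recovered for most probe sets from the step between neighbouring values: 54 of the 119 member probe sets (45.4%) were at 8 or above on the log2 scale on their lowest array, 54 lay between 4 and 8, and 10 lay between 2 and 4. Over all probe sets the share at 8 or above was 17.9%. The labels call the arrays biological replicates without naming mice or cultures, so a p-value measures the spread between these arrays. By these ranges, which are no comparison of levels between genes, the T cell genes Cd3d, Cd3e, Cd3g, Cd4 and Cd28 were at 8 or above and Trat1 was between 4 and 8. Of 22 probe sets of CD8 T, NK, B, myeloid and erythroid markers, 12 lay between 4 and 8, among them those of Cd79a, Cd79b, Lyz2, Csf1r, Cd14 and Fcgr3, and 10 lay between 2 and 4, among them those of Ncr1, Eomes, Ms4a1, Itgam, Alas2 and Hba-a1. The share of other cells was therefore not read from them. Of 31 marker probe sets none was called in any comparison in limma with Benjamini-Hochberg adjustment. An unadjusted p under 0.05 was reached by 1 to 6 of them. Against WT DMSO these were 4 in KO DMSO, 6 in WT digoxin and 5 in KO digoxin. Of all probe sets 9.06%, 6.26% and 13.9% reached it there. In that order Cd3g differed by 0.43, 0.43 and 0.53 log2 units and Cd3e by 0.34, 0.24 and 0.37. A Trat1 probe set ran the other way, at -0.24, -0.30 and -0.57. The other Trat1 probe set gave 0.08, 0.15 and 0.05. Markers of other cells were also among those with an unadjusted p under 0.05. Cd79a differed by 0.48 in WT digoxin and 0.43 in KO digoxin, and a Csf1r probe set by 0.31 and 0.43. In WT digoxin an Eomes probe set differed by 0.405. In KO DMSO Fcgr3 differed by -0.29 and a Cd28 probe set by 0.25. The part of these shifts in the results below was not tested.

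Heat shock proteins bind unfolded or partly folded proteins and help them to reach or regain their fold. Hspa8 serves as the Hsp70 of unstressed cells, while Hspa1a and Hspa1b are held low and are switched on by heat, proteotoxic stress and, in T cells, by activation. The switch is HSF1, a transcription factor that chaperones keep inactive until unfolded proteins draw them away. HSF1 binds the heat shock element, an array of short GAA blocks in alternating orientation. J proteins hand clients to Hsp70 and start its ATP cycle, Hsp110 and BAG proteins release its nucleotide, Hsp90 takes over late-folding clients such as kinases and nuclear receptors, and TRiC folds actin and tubulin.

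The promoters of 4 members are shown because they carry a match to the heat shock element. The first pair belongs to the members that were called, and the second to members with longer elements that were not. They come from RefSeq on GRCm38.p6 and are windows of 300 bases around the gene start, with the heat shock element in capitals. Hspa1a is at chr17:34972107-34972406 on the minus strand and Hspa1b at chr17:34959189-34959488, also on the minus strand. Hspe1 is at chr1:55087898-55088197 and Chordc1 at chr9:18292017-18292316, both on the plus strand.
Hspa1a promoter: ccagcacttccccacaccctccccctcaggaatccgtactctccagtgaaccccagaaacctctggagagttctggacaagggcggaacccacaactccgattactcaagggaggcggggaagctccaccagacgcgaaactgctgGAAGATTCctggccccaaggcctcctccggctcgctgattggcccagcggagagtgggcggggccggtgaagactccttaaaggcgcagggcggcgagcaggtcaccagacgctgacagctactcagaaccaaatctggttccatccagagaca
Hspa1b promoter: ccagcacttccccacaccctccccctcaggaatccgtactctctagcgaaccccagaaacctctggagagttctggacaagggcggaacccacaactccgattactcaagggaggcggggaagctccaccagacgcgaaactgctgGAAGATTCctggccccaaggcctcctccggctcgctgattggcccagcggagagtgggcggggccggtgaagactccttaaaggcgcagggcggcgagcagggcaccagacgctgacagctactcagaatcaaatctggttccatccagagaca
Hspe1 promoter: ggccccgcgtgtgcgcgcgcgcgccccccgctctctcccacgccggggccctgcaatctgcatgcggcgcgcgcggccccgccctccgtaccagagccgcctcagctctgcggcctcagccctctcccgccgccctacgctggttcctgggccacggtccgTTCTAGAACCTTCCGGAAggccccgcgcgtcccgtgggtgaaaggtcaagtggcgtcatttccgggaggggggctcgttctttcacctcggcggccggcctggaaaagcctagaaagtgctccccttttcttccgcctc
Chordc1 promoter: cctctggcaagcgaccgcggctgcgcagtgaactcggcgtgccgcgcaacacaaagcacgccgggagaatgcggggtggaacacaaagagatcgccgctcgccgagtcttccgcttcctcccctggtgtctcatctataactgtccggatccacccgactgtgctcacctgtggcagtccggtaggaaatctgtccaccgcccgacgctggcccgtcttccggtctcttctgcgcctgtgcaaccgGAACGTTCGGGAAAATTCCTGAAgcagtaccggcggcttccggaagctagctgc

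The Hspa1a and Hspa1b windows were identical at 296 of 300 positions (98.7%). Counted from the first base of the window, with the Hspa1a base first, the differences were C44T, T47C, T249G and C276T. In both windows the element GAAGATTC began at -104 from the gene start, and none of the differences fell in it. The heat shock element searched was GAANNTTC on both strands. Windows were at hand for 39 of the 49 listed genes, Ptges3 included, and some genes had more than 1. Hspa8, Hspa9 and Hsp90aa1 had none, so they were not searched. The element was present in 15 of 51 member promoters (29.4%), from 13 genes, against 7.86% of all promoters of this length. A longer form is the short one extended on either side by a further block after 2 spacer bases. It was present in 7 member promoters (13.7%), from 5 genes, against 0.603% of all. Overlapping windows were counted separately in these shares, so some elements were counted more than once. Dnajb6 and Hsph1 each had overlapping windows with the same longer element, and Hspd1 and Hspe1 share 1 stretch read on opposite strands. The core of the ROR response element, TAGGTCA or TGGGTCA on either strand, occurred in 2 member promoters (3.92%), those of Dnajb2 and Tcp1, against 6.45% of all. No match to it was found in the Hspa1a and Hspa1b windows, which says only that these letters are not there.

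The inducible Hsp70 genes were lower in each of the 3 other groups than in WT DMSO cells. RORγt-deficient cells in DMSO had about 3-fold less signal, and so did wildtype cells in digoxin, although for digoxin 1 of the 4 probe sets passed the test. Within RORγt-deficient cells, digoxin made a difference too small to pass the test. The genes are reported by 4 probe sets, 1 of Hspa1a and 3 of Hspa1b. Because the genes are near-identical copies, these are not 4 independent measurements: over the 8 arrays their values correlated pairwise at 0.99 to 0.998, as a description. All 4 had a lowest level between 4 and 8.

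On the log2 scale relative to the WT DMSO mean, Hspa1a (1452388_at) read -1.61 and -2.11 in KO digoxin, -1.59 and -1.91 in KO DMSO, -1.26 and -1.67 in WT digoxin, and 0.41 and -0.41 in WT DMSO. Hspa1b (1427126_at) read -1.77 and -2.20 in KO digoxin, -1.47 and -1.84 in KO DMSO, -1.49 and -1.75 in WT digoxin, and 0.37 and -0.37 in WT DMSO. A further Hspa1b probe set (1427127_x_at) read -1.75 and -2.12 in KO digoxin, -1.53 and -1.99 in KO DMSO, -1.40 and -1.77 in WT digoxin, and 0.24 and -0.24 in WT DMSO. All 6 arrays outside WT DMSO lay below both WT DMSO arrays on each of the 4 probe sets, and the 3 other groups lay close together. The remaining one (1452318_a_at) read -1.66 and -2.02 in KO digoxin, -1.45 and -1.79 in KO DMSO, -1.32 and -1.62 in WT digoxin, and 0.40 and -0.40 in WT DMSO.

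The distance between the lower WT DMSO array and the highest of the 6 others was 0.86 for Hspa1a and 0.93 to 1.16 for the Hspa1b probe sets, on the log2 scale. The 2 WT DMSO arrays themselves differed by 0.82 for Hspa1a and by 0.47 to 0.79 for Hspa1b. A difference at least as large between those arrays was found for 37 of 45037 probe sets (0.082%) in the case of Hspa1a, and for 48 (0.107%), 89 (0.198%) and 914 (2.029%) in the case of Hspa1b, the last for 1427127_x_at. Replicate 2 was lower than replicate 1 on all 4 probe sets in every group. The control probe sets for RNA quality, which set the 3′ end of a transcript against its 5′ end, differed from the WT DMSO mean by -0.066 to 0.032 for Gapdh over all arrays. For beta actin the values were -0.099 and -0.078 in KO digoxin, -0.083 and -0.095 in KO DMSO, -0.03 and -0.079 in WT digoxin, and 0.052 and -0.052 in WT DMSO. The part of RNA quality in the Hsp70 difference was not tested.

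**Figure D1:**
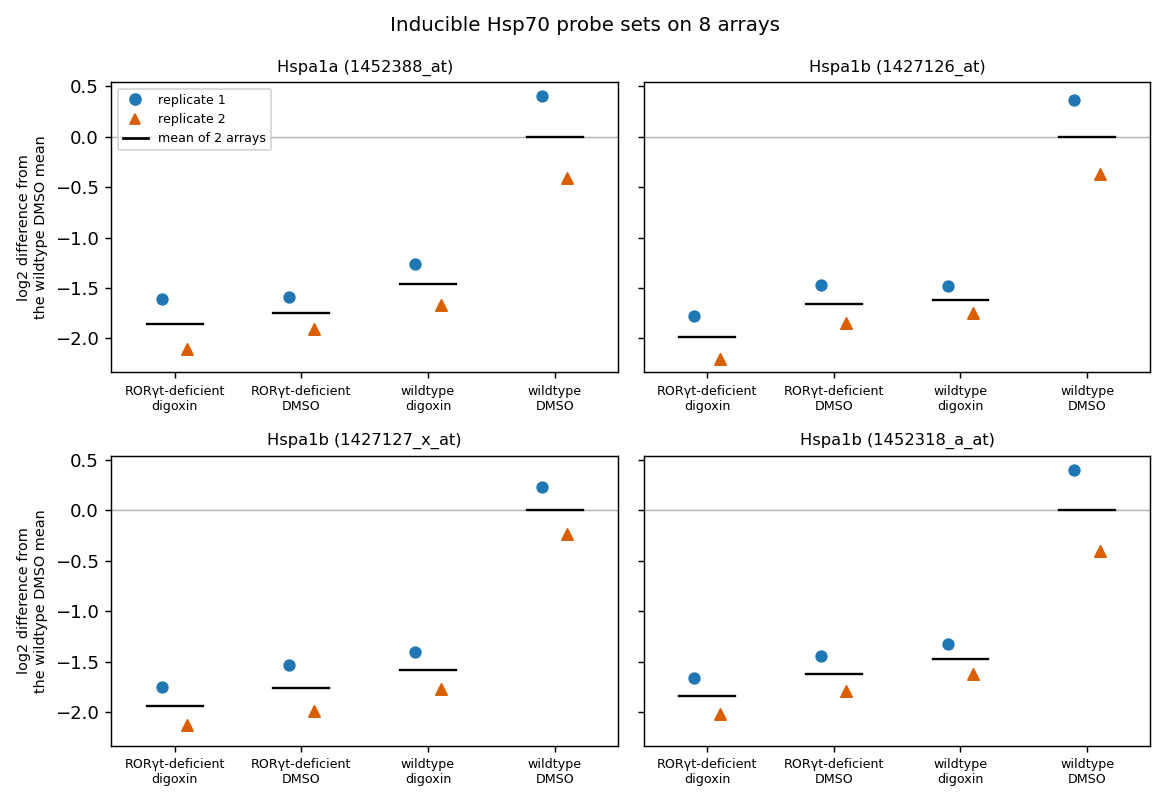
Values of the 4 inducible Hsp70 probe sets on the 8 arrays, as log2 differences from the WT DMSO mean, with points for arrays and bars for group means. All 6 arrays outside WT DMSO lie below both WT DMSO arrays, which themselves stand 0.47 to 0.82 apart.

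The first comparison asked what loss of RORγt did in DMSO. Limma was fitted to all probe sets and 8 arrays at once, and a probe set was called at a Benjamini-Hochberg adjusted p under 0.05. Of the 119 member probe sets, 4 were called lower and 0 higher, where the background was 0.426% of all probe sets called lower and 0.611% called in either direction. The 4 were those of Hspa1a and Hspa1b. Hspa1a was 3.36-fold lower in KO DMSO than in WT DMSO, a log2 difference of -1.75 ± 0.26 (SE, n = 2 each, limma adjusted p = 0.0209). The Hspa1b probe sets gave -1.76 ± 0.22 (1427127_x_at, limma adjusted p = 0.0111), -1.66 ± 0.24 (1427126_at, adjusted p = 0.01855) and -1.62 ± 0.24 (1452318_a_at, adjusted p = 0.0202). Whether fewer cells made Hsp70 RNA or each cell held less of it cannot be told apart in bulk RNA. The number of member calls rested on single arrays: it was 0 without KO DMSO replicate 2 or WT DMSO replicate 1, 1 without KO DMSO replicate 1, and 2 without either KO digoxin array. It was also 0 after quantile normalization of the arrays, where calls over all probe sets fell from 275 to 5. The 4 differences kept their sign in every alternative tried. Leaving out 1 array could not change that sign, because every array outside WT DMSO lay below both WT DMSO arrays.

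The second comparison asked what digoxin did in wildtype cells. Of the 119 member probe sets, 1 was called lower and 0 higher, against 0.0266% of all probe sets called lower, 0.0355% called higher and 0.0622% in either direction. It was Hspa1b (1427127_x_at), 3.003-fold lower in WT digoxin than in WT DMSO at -1.59 ± 0.22 log2 units (SE, n = 2 each, limma adjusted p = 0.0427). The other Hspa1b probe sets gave -1.62 ± 0.24 (1427126_at, limma adjusted p = 0.0641) and -1.47 ± 0.24 (1452318_a_at, adjusted p = 0.0909). Hspa1a gave -1.47 ± 0.26 (limma adjusted p = 0.131). All 4 had both WT digoxin arrays below both WT DMSO arrays, as did 17.9% of all probe sets. The single call was made without either KO DMSO array and was lost without any 1 of the other 6 and after quantile normalization.

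RORγt-deficient cells in digoxin were also set against WT DMSO cells, a comparison that changes genotype and treatment together. Here 4 member probe sets of 119 were called lower and 0 higher, against 0.626% of all probe sets called lower and 0.941% in either direction. Hspa1a was 3.62-fold lower in KO digoxin at -1.86 ± 0.26 log2 units (SE, n = 2 each, limma adjusted p = 0.014). Hspa1b (1427126_at) was 3.97-fold lower at -1.99 ± 0.24 (limma adjusted p = 0.00712), and its other probe sets gave -1.94 ± 0.22 and -1.84 ± 0.24 (limma adjusted p = 0.00537 and 0.00983). The count was 0 without either KO digoxin array, without WT DMSO replicate 1 or after quantile normalization, and 5 without either KO DMSO array. These 3 comparisons share the WT DMSO arrays, so their lower values for Hsp70 are not independent of each other.

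Within RORγt-deficient cells, digoxin gave Hspa1a a log2 difference of -0.11 ± 0.26 and the Hspa1b probe sets -0.33 ± 0.24, -0.22 ± 0.24 and -0.18 ± 0.22 (SE, n = 2 each), and KO digoxin and KO DMSO overlapped on all 4. None of the 119 member probe sets was called in limma, and 0.00222% of all probe sets were called. An unadjusted p under 0.05 was reached by 7 members (5.88%) and by 3.41% of all probe sets. Between the genotypes in digoxin, Hspa1a differed by -0.39 ± 0.26 and Hspa1b by -0.37 ± 0.24, -0.37 ± 0.24 and -0.35 ± 0.22 log2 units in KO digoxin relative to WT digoxin. Again no member was called in limma, and 0.00222% of all probe sets were called, while 2 members (1.68%) and 4.77% of all probe sets had an unadjusted p under 0.05.

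Whether the digoxin effect on Hsp70 differed between genotypes was tested as the effect in RORγt-deficient cells minus the effect in wildtype cells. The difference was 1.41 ± 0.30 log2 units for Hspa1b (1427127_x_at), with a limma adjusted p = 0.9999 and 0.000984 before adjustment. It was 1.36 ± 0.37 for Hspa1a, 1.29 ± 0.34 for Hspa1b (1427126_at) and 1.25 ± 0.34 for Hspa1b (1452318_a_at), with p-values before adjustment of 0.00473, 0.00355 and 0.00457 in limma and an adjusted p = 0.9999 for each. Limma called 0% of all probe sets in this test, and 1253 of 45037 (2.78%) had an unadjusted p under 0.05, among them 6 of the 119 members (5.04%). On each of the 4 probe sets both WT DMSO arrays stood above all arrays of the 3 other groups.

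Inducible Hsp70 was then set against constitutive chaperones on the same array, with no test because both lists were chosen with results known. The mean of the 4 Hspa1a and Hspa1b probe sets minus the mean of the 4 Hspa8 probe sets was -1.51 and -1.86 in KO digoxin, -1.56 and -1.73 in KO DMSO, -1.29 and -1.40 in WT digoxin, and 0.39 and -0.39 in WT DMSO, in log2 units relative to the WT DMSO mean. The group means were -1.68 ± 0.25 in KO digoxin, -1.64 ± 0.12 in KO DMSO, -1.35 ± 0.08 in WT digoxin and 0 ± 0.55 in WT DMSO (SD, n = 2 each). Setting Hsp70 against the median of the other 115 member probe sets gave group means of -1.80, -1.62, -1.48 and 0 in the same order of groups. Inducible Hsp70 was therefore lower than in WT DMSO relative to Hspa8 and to the other members on all 6 arrays of the 3 other groups.

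**Figure D2:**
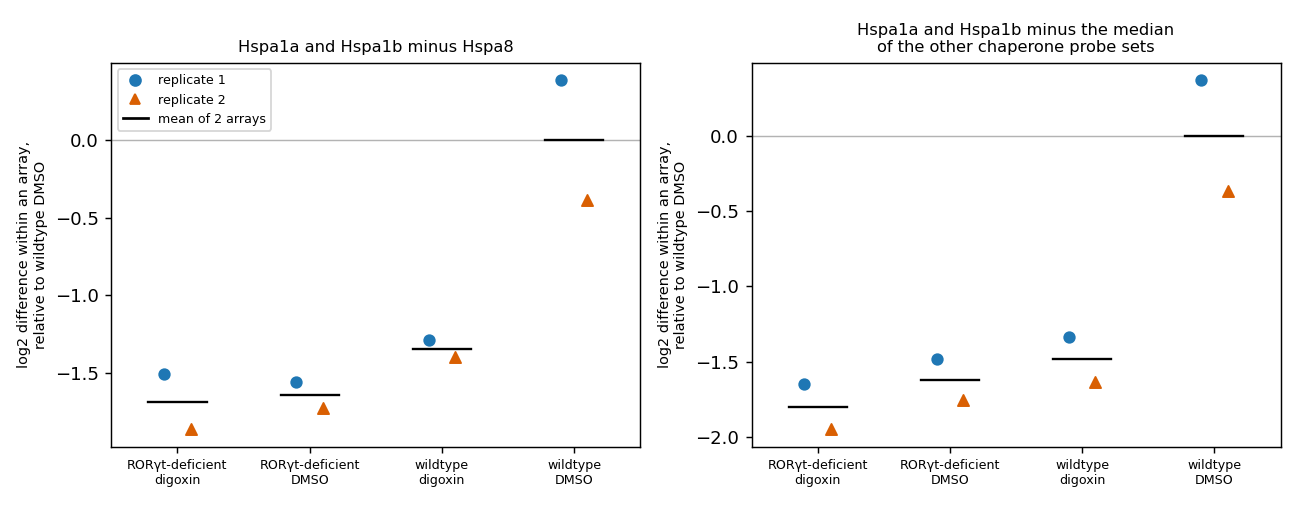
Mean of the inducible Hsp70 probe sets minus the mean of the Hspa8 probe sets, and minus the median of the other members, on each of the 8 arrays, in log2 units relative to the WT DMSO mean. The difference from Hspa8 averaged -1.68 in KO digoxin, -1.64 in KO DMSO and -1.35 in WT digoxin.

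The other 44 genes, with 115 probe sets, had no call in any of the 6 comparisons in limma. An unadjusted p under 0.05 was reached by 10 of them (8.7%) for RORγt loss in DMSO, where 9.06% of all probe sets reached it, and by 6 (5.22%) for digoxin in wildtype cells, against 6.26% of all. For KO digoxin against WT DMSO 23 (20%) reached it, against 13.9% of all. Their median log2 difference was -0.08 in KO DMSO against WT DMSO, -0.05 in WT digoxin against WT DMSO and -0.10 in KO digoxin against WT DMSO. The medians over all probe sets in these comparisons were 0.01, 0.01 and 0.03. The differences of these 115 probe sets spanned -0.48 to 0.37 for RORγt loss in DMSO, in which 84 were negative. They spanned -0.43 to 0.58 for digoxin in wildtype cells, in which 74 were negative. Of all 45037 probe sets 21529 and 21329 were negative there. All 6 arrays outside WT DMSO lay below both WT DMSO arrays for 25 of the 115 probe sets, from 17 genes, and above both for 5. Over all probe sets these shares were 7.76% and 7.47%. The largest distance among the 115 was 0.27, for Hspa9, against at least 0.86 for Hsp70.

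**Figure D3:**
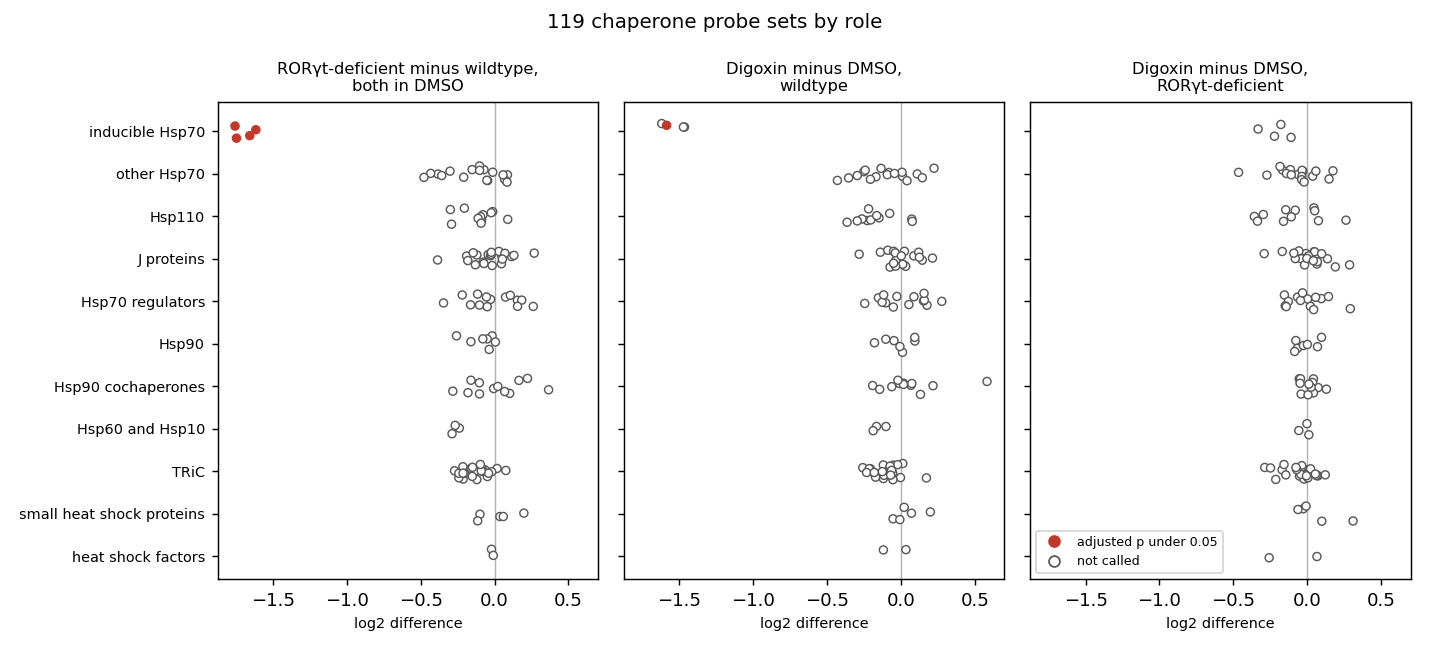
Log2 differences of the 119 member probe sets in the comparisons named on the panels, grouped by role, with each point a probe set and filled points those with an adjusted p under 0.05. The inducible Hsp70 probe sets lie between -1.76 and -1.62 for RORγt loss in DMSO, and the others lie between -0.48 and 0.37.

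Hspa8, the constitutive cytosolic Hsp70, has 4 probe sets. The one with the narrowest error (1455789_x_at) read -0.15 and -0.13 in KO digoxin, -0.07 and -0.14 in KO DMSO, -0.05 and -0.14 in WT digoxin, and -0.04 and 0.04 in WT DMSO. Its difference for RORγt loss in DMSO was -0.10 ± 0.10 log2 units (limma adjusted p = 0.829) and for digoxin in wildtype cells -0.09 ± 0.10 (limma adjusted p = 0.908). The Hspa8 probe sets disagreed with each other: 1431182_at gave -0.43 ± 0.16 for digoxin in wildtype cells and 1420622_a_at gave -0.46 ± 0.19 for digoxin in RORγt-deficient cells, while 1420623_x_at stayed at 0.01 ± 0.11 and -0.03 ± 0.11 in those comparisons. None was called.

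Hspa9, the mitochondrial Hsp70 that helps pull imported proteins into the matrix, stood nearest to the threshold among the other members. Its probe set 1418503_at read -0.53 and -0.64 in KO digoxin, -0.36 and -0.60 in KO DMSO, -0.27 and -0.32 in WT digoxin, and -0.01 and 0.01 in WT DMSO. The groups did not overlap in any comparison against WT DMSO, and the WT DMSO arrays lay close together. Over all probe sets 17.9% to 21.5% lay below WT DMSO without overlap in these comparisons. KO digoxin was 1.5-fold lower than WT DMSO for Hspa9, at -0.59 ± 0.12 log2 units (limma adjusted p = 0.055). KO DMSO differed from WT DMSO by -0.48 ± 0.12 (limma adjusted p = 0.151) and KO digoxin from WT digoxin by -0.29 ± 0.12 (limma adjusted p = 1). A second Hspa9 probe set (1418504_at) ran the same way, at -0.48 ± 0.12 for KO digoxin against WT DMSO, as did 1447728_x_at at -0.25 ± 0.11, while 1431274_a_at and 1453811_at, at lowest levels between 4 and 8, gave 0.05 ± 0.16 and 0.06 ± 0.14 there. In 10 of 18 alternative settings 1418503_at passed the threshold for KO digoxin against WT DMSO.

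Among the remaining Hsp70 genes, Hspa13 (1430026_at), an ATPase of microsomes, read -0.00 and -0.16 in KO digoxin against 0.27 and 0.18 in WT digoxin. This difference of -0.30 ± 0.11 log2 units was not called (limma adjusted p = 1), and the other 3 Hspa13 probe sets gave -0.18 ± 0.14, -0.14 ± 0.16 and -0.10 ± 0.10 there. Hspa2, an Hsp70 known from the testis and chosen after its values were seen, read -0.36 and -0.39 in KO digoxin, -0.39 and -0.48 in KO DMSO, -0.04 and -0.29 in WT digoxin, and -0.06 and 0.06 in WT DMSO, with no call. The 17 probe sets of the 5 Hsp70 genes other than Hspa1a and Hspa1b had a median of -0.10 for RORγt loss in DMSO, and 13 of them were negative.

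Mitochondrial Hsp60 and Hsp10, encoded by Hspd1 and Hspe1, form the folding chamber of the matrix. Hspd1 read -0.22 and -0.36 in KO digoxin, -0.23 and -0.35 in KO DMSO, -0.04 and -0.16 in WT digoxin, and -0.03 and 0.03 in WT DMSO. Hspe1 (1450668_s_at) read -0.22 and -0.42 in KO digoxin, -0.15 and -0.39 in KO DMSO, -0.11 and -0.27 in WT digoxin, and -0.00 and 0.00 in WT DMSO. All 3 probe sets of the pair had both arrays of KO DMSO and of WT digoxin below both WT DMSO arrays, yet none was called. Over all probe sets 20.1% lay so in KO DMSO and 17.9% in WT digoxin, and the comparisons share the WT DMSO arrays. For RORγt loss in DMSO the differences were -0.29 ± 0.11 for Hspd1 and -0.27 ± 0.13 and -0.24 ± 0.12 for Hspe1, with limma adjusted p-values of 0.463, 0.585 and 0.616. The Hspe1 promoter, shown above, carries a longer heat shock element that begins at -89 from the gene start. A window of Hspd1 overlaps it and holds the same element on the other strand.

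Chordc1, a cochaperone of Hsp90 whose promoter carries overlapping longer elements at the gene start, read -0.25 and -0.39 in KO digoxin, -0.20 and -0.36 in KO DMSO, -0.01 and -0.28 in WT digoxin, and 0.02 and -0.02 in WT DMSO. Its difference was -0.28 ± 0.13 log2 units for RORγt loss in DMSO (limma adjusted p = 0.549). WT digoxin overlapped WT DMSO. The 11 member genes other than Hspa1a and Hspa1b with a heat shock element in the promoter window, with 24 probe sets, had no call. Their differences ran from -0.29 to 0.37 with a median of -0.12 for RORγt loss in DMSO, and from -0.30 to 0.58 with a median of -0.04 for digoxin in wildtype cells.

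Hsp90aa1, the stress-inducible cytosolic Hsp90, read 0.03 and -0.25 in KO digoxin, 0.07 and -0.14 in KO DMSO, 0.09 and -0.07 in WT digoxin, and -0.12 and 0.12 in WT DMSO on probe set 1426645_at. The groups overlapped on this probe set. On 1437497_a_at all 6 arrays outside WT DMSO lay below both WT DMSO arrays, the highest at -0.03 against -0.01 for the lower WT DMSO array, with no call. The 5 Hsp90aa1 probe sets gave differences of -0.26 to 0.01 for RORγt loss in DMSO. Fkbp4, an immunophilin that joins Hsp90 in steroid receptor complexes, had a probe set (1459808_at) that read 0.29 and 0.52 in KO digoxin, 0.24 and 0.49 in KO DMSO, 0.57 and 0.60 in WT digoxin, and -0.18 and 0.18 in WT DMSO. WT digoxin was 0.58 ± 0.15 above WT DMSO there (limma adjusted p = 0.433), but its lowest level was between 2 and 4, and the other Fkbp4 probe sets gave -0.01 ± 0.12 and 0.02 ± 0.14. Fkbp5, the related immunophilin and a glucocorticoid target, gave -0.06 to 0.22 for digoxin in wildtype cells over its 3 probe sets, with no call.

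**Figure D4:**
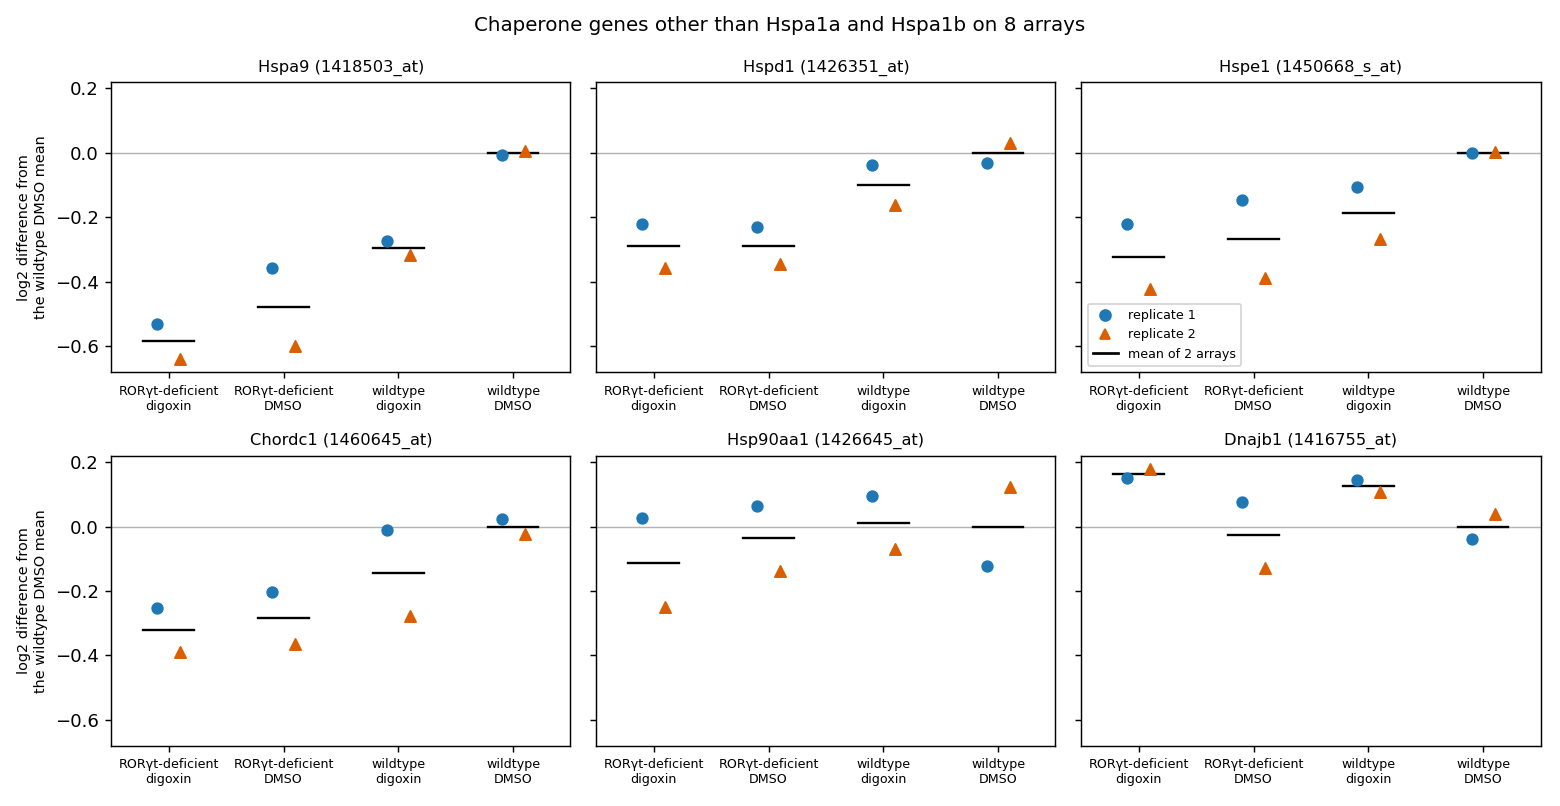
Values of Hspa9, Hspd1, Hspe1, Chordc1, Hsp90aa1 and Dnajb1 on the 8 arrays, as log2 differences from the WT DMSO mean, with points for arrays and bars for group means. Hspa9 reads -0.53 and -0.64 in KO digoxin against -0.01 and 0.01 in WT DMSO, while the groups of Hsp90aa1 overlap on the plotted probe set (1426645_at).

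Dnajb1 (1416755_at), the heat-inducible J protein that works with Hspa1a, read 0.15 and 0.18 in KO digoxin, 0.07 and -0.13 in KO DMSO, 0.14 and 0.11 in WT digoxin, and -0.04 and 0.04 in WT DMSO. The other Dnajb1 probe set (1416756_at) read 0.065 and 0.092 in KO digoxin, 0.024 and 0.116 in KO DMSO, -0.04 and 0.066 in WT digoxin, and 0.067 and -0.067 in WT DMSO. The 2 Dnajb1 probe sets gave -0.03 ± 0.11 and 0.07 ± 0.11 log2 units for RORγt loss in DMSO. Dnaja1, the main cytosolic J protein with a farnesyl anchor, gave 0.03 to 0.05 over its 3 probe sets in that comparison. Over the 8 J protein genes, 13 of 21 probe sets were negative there, with a median of -0.02. Bag3, a heat-inducible nucleotide release factor that directs clients to autophagy, gave -0.10 ± 0.13 for RORγt loss in DMSO and -0.15 ± 0.13 for digoxin in wildtype cells.

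Of the Hsp110 genes, which release ADP from Hsp70, Hsph1 is heat-inducible and gave -0.29 ± 0.19 and -0.16 ± 0.15 log2 units for digoxin in wildtype cells. Hspa4l (1439093_at) read -0.38 and -0.36 in KO digoxin, -0.03 and 0.01 in KO DMSO, -0.19 and -0.54 in WT digoxin, and -0.03 and 0.03 in WT DMSO. Both digoxin groups lay below both DMSO groups. The digoxin difference of this Hspa4l probe set was -0.36 ± 0.13 in each genotype (limma adjusted p = 1 in RORγt-deficient cells and 0.7 in wildtype cells), and RORγt loss in DMSO gave -0.01 ± 0.13. The other 4 Hspa4l probe sets gave -0.34 ± 0.14, -0.30 ± 0.13, -0.16 ± 0.10 and 0.05 ± 0.11 for digoxin in RORγt-deficient cells. The probe sets of the gene therefore did not all run one way in that comparison. In WT digoxin the same 4 had means of -0.26, -0.23, -0.22 and -0.20 relative to WT DMSO, so every Hspa4l probe set was lower. Of the 11 Hsp110 probe sets, from 3 genes, 9 were negative in WT digoxin against WT DMSO. Their median was -0.20, and 7 lay below WT DMSO without overlap, against 17.9% of all probe sets. None of these passed the test.

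The TRiC chaperonin was measured by 23 probe sets of 7 subunit genes. For RORγt loss in DMSO 21 of 23 were negative, with a median of -0.13. For digoxin in wildtype cells 21 of 23 were negative, with a median of -0.09 and a range of -0.26 to 0.17. Over all 45037 probe sets 21529 and 21329 were negative. Probe sets of 1 subunit gene are not independent measurements. Tcp1, a subunit gene, read -0.10 and -0.21 in KO digoxin, -0.15 and -0.28 in KO DMSO, -0.09 and -0.04 in WT digoxin, and 0.03 and -0.03 in WT DMSO. None was called, and these comparisons share the WT DMSO arrays. The small heat shock proteins Hspb1 and Cryab gave -0.11 to 0.20 for RORγt loss in DMSO over 5 probe sets. Cryab (1435837_at), at a lowest level between 2 and 4, was 0.31 ± 0.12 higher in KO digoxin than in KO DMSO without a call (limma adjusted p = 1). Hsf2, a heat shock factor, gave -0.02 ± 0.12 and -0.01 ± 0.12 for RORγt loss in DMSO.

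Groups that did not overlap were counted as a description. For RORγt loss in DMSO, 42 of 119 member probe sets had both KO arrays below both WT arrays and 10 had both above, against 20.1% and 20.2% of all probe sets. For digoxin in wildtype cells 41 were below and 21 above, against 17.9% and 18.7%. For digoxin in RORγt-deficient cells 15 were below and 9 above, against 11.7% and 16.5%. For KO digoxin against WT digoxin 21 were below and 7 above, against 13.4% and 16.8%. For KO digoxin against WT DMSO 51 were below and 13 above, against 21.5% and 27%. Most of these members differed by little, as the ranges above show. Replicate 2 was below replicate 1 for 73.9% of member probe sets in KO digoxin, 70.6% in KO DMSO, 68.1% in WT digoxin and 42% in WT DMSO, where all probe sets gave 52.3%, 47.7%, 47.8% and 50.9%. The part of this difference between replicates in the results above was not tested.

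A second list of 39 genes of the heat shock and protein folding pathway that are not members gave 36 measured genes and 87 probe sets. In KO DMSO against WT DMSO 1 probe set was called higher and 0 lower, where 0.184% of all probe sets were called higher. It was Ier5 (1417612_at), an immediate early gene whose product acts on HSF1, at 0.66 ± 0.11 log2 units (limma adjusted p = 0.0291). The other Ier5 probe sets gave 0.67 ± 0.15 (limma adjusted p = 0.107) and 0.27 ± 0.16 (limma adjusted p = 0.669). In KO digoxin against WT DMSO the same Ier5 probe set was called higher, at 0.64 ± 0.11 (limma adjusted p = 0.0286), where 0.315% of all were called higher. Atf3, a stress-induced transcription factor, was called lower there at -0.51 ± 0.10 (limma adjusted p = 0.04959), where 0.626% of all were called lower. Whether the Ier5 and Atf3 calls hold in the alternative settings was not tested. The median of the 87 probe sets was -0.02 for RORγt loss in DMSO and -0.04 for digoxin in wildtype cells.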

How the data were processed

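The authors deposited 1 table of log2 values, made with RMA per the submitters' processing notes and analysed in GeneSpring GX 11.5 per the series' design text. From the values themselves, each probe set is given relative to the mean of its WT DMSO arrays, so no absolute level is kept. No label records this centring step. Genes were named from the array annotation, by probe sets with 1 symbol. Members, lists and tests were chosen with earlier results of these data known. Genes described in full were Hspa1a, Hspa1b, Hspa8 and called members, others a list by role and, in each comparison, the 5 probe sets with the largest non-overlapping differences.

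Limma 3.58.1 in R 4.3.3 was fitted to all 45037 non-control probe sets with 4 group means over 8 arrays, with Benjamini-Hochberg adjustment over all probe sets within each comparison. The fit left 4 residual degrees of freedom and was tested on simulated data. An exact permutation test of 2 against 2 arrays cannot go below p = 0.333, so none was used. The number of arrays limits the precision. Alternatives were a replicate block, the compared groups only, 1 probe set per gene, array weights, a level filter, quantile normalization and leaving out each array.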

Additional observations from a re-analysis of the deposited data

How the results depend on the processing

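The 12 Hspa1a and Hspa1b differences against WT DMSO kept their sign under the 17 to 18 alternatives run for each. Leaving out 1 array could not change it, as all 6 arrays outside WT DMSO lay below both WT DMSO arrays. Most other settings leave the difference itself unchanged, so the kept sign is a weak check. The number of member calls did not hold. For RORγt loss in DMSO it was 4 of 119, and 1 with the compared groups only, 2 of 46 with 1 probe set per gene (both inducible Hsp70), 0 after quantile normalization and 0 to 4 leaving out 1 array. For digoxin in wildtype cells it was 1, and 0 with the compared groups only, without probe sets whose lowest level was under 4, or after quantile normalization, and 0 to 1 leaving out 1 array. For KO digoxin against WT DMSO it was 4, and 0 after quantile normalization and 0 to 5 leaving out 1 array. Quantile normalization gives all arrays 1 spread, whereas the WT DMSO arrays as deposited had SDs of 0.0945 and the others up to 0.276. The WT DMSO values are differences from their own mean, so part of their smaller spread is built into the deposited values. Counts after quantile normalization are therefore given as a description. Under this setting Hspa1a was 0.17 in KO digoxin relative to KO DMSO and 0.07 relative to WT digoxin. Both were uncalled and opposite in sign to the values reported. The causes of these shifts, unequal spread included, were not tested. Over all probe sets, calls for RORγt loss in DMSO numbered 275, against 81 with the compared groups only, 5 after quantile normalization and 21 to 318 leaving out 1 array. For digoxin in wildtype cells they numbered 28, against 15, 5 and 3 to 25. For KO digoxin against WT DMSO they numbered 424, against 661, 6 and 21 to 476, and 716 with array weights.

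With the replicate number as a block, 4 member probe sets were called for RORγt loss in DMSO, 4 for digoxin in wildtype cells and 5 for KO digoxin against WT DMSO. The numbers were not shown to pair arrays: differences between replicates correlated over probe sets at 0.304 to 0.456 among the 3 groups outside WT DMSO and at -0.238 to -0.134 with WT DMSO. Crossing the WT DMSO numbers, chosen after seeing the data, gave 4, 2 and 7 member calls and 623, 94 and 1394 calls over all probe sets in those comparisons. With 2 arrays a group, the spread rests mainly on the shared estimate.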
